A study of Homo sapiens with 8 samples.

Results

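Nuclear factor κB (NF-κB) is a family of dimeric transcription factors that inhibitor proteins of the IκB class hold in the cytoplasm until a kinase complex marks the inhibitor for destruction. The freed dimers switch on genes for inflammation and cell survival, and also the genes of their own inhibitors, so the signal limits itself. After DNA breaks, the kinase ATM is known to carry a signal from the nucleus to the same kinase complex. The genes described here are 10 parts and targets of this system: the subunit genes NFKB1, NFKB2 and RELB, the feedback genes NFKBIA, TNFAIP3 and ZC3H12A, the survival genes BIRC3, BIRC2 and SOD2, and the inducible gene TNFAIP2. They were taken by symbol, 10 of the 15041 genes listed in any of 8 count tables. All 10 passed the filter on low counts, which left 12456 genes. They were chosen with their lower levels in irradiated ATM knockdown cells already known, so for these 10 every value that involves knockdown cells is given as a description with no test, and only their irradiation response in wild-type (WT) cells is tested.

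The cells belonged to MDA-MB-231, an established line of human breast cancer without hormone receptors or amplified HER2, and were picked singly and sequenced by a modified Smart-seq2 protocol with libraries of the 3′ ends of mRNA. The 4 groups were ATM knockdown cells given 5 Gy of ionizing radiation and cultured for a further 4 h, untreated ATM knockdown cells, WT cells given the same dose and time, and untreated WT cells. Each group had 2 libraries, and 363 of 378 cells were kept. The labels give neither how ATM was lowered nor whether the knockdown cells were 1 clone or the libraries separate cultures, so p-values cover only the variation among these 8 libraries and that variation may be technical. The titles of the WT and the knockdown libraries also carry different suffixes, so genotype and any difference in handling between those sets cannot be told apart.

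Kept cells held 9321268 to 24256471 counts per library. Levels are counts per 1000000 counts of the library (CPM), summed over its cells, so that cells with many counts weigh most. Shares of cells with the transcript are also given below, after each cell was thinned at random to 71000 counts, a depth that 327 cells reached. A share also falls when every cell holds less transcript, so shares do not separate that case from fewer cells with the transcript. The ATM transcript was at 13.0 and 14.0 CPM in irradiated knockdown libraries, 13.8 and 33.0 CPM in untreated knockdown libraries, 28.0 and 33.2 CPM in irradiated WT libraries, and 57.9 and 31.1 CPM in untreated WT libraries. The untreated knockdown library numbered 2 here was thus level with WT in summed ATM, although 33.3% of its thinned cells had an ATM count, against 54.3% to 76.7% in the 4 WT libraries. Changes and differences that rest on that library are therefore also given without it. The 4 mesenchymal markers of the line summed to 8157 to 9240 CPM in knockdown libraries and 11351 to 13160 CPM in WT libraries. LGALS1 and S100A4 were lower in every knockdown library than in every WT library, and VIM and CD44 were higher. The 5 markers named as low or absent in the line summed to 49.4 to 79.2 CPM. Of those 5, ESR1 and FOXA1 were at 0 in all libraries and PGR in all but 1, while GATA3 was at 35.7 to 54.8 CPM and ERBB2 at 8.06 to 25.5 CPM. The leukocyte markers summed to 1.24 to 10.8 CPM with 6 of 11 at 0 everywhere. Of the endothelial markers, PECAM1 was at 0.555 and 0 CPM in irradiated knockdown libraries, 3.93 and 6.40 in untreated knockdown, 4.08 and 1.68 in irradiated WT, and 19.0 and 32.1 in untreated WT. VWF, another defining endothelial marker, was at 0 in all but 1 library. The part of the PECAM1 transcript in the results below was not tested.

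The irradiation change of knockdown cells was below 0 for all 10 genes, and for NFKB1 it was within 1 SE of 0. The fitted log2 change was deepest for ZC3H12A at -4.50 (SE 0.457), followed by BIRC3 at -2.88 (SE 0.277), TNFAIP2 at -2.44 (SE 0.292), NFKBIA at -1.61 (SE 0.230) and NFKB2 at -1.59 (SE 0.455). RELB, TNFAIP3 and SOD2 were at -1.35 (SE 0.393), -1.39 (SE 0.885) and -1.22 (SE 0.342), BIRC2 at -0.52 (SE 0.202) and NFKB1 at -0.15 (SE 0.304). The median of the 10 was -1.49, and that of all 12456 genes was 0.01. For 9 genes, NFKB1 being the exception, both irradiated libraries lay below both untreated ones, as did 19.1% of all genes (20.4% lay above without overlap), and 48.5% of all genes had a change below 0. Since this contrast chose the genes, nothing is read from those counts. Across all genes, edgeR's quasi-likelihood test called 28 genes, 0.225% of those tested, 4 higher and 24 lower. Without replicate 2 of the untreated knockdown, NFKB1 was at 0.09 and the other 9 genes lay between -4.47 (ZC3H12A) and -0.67 (BIRC2). NFKB1 was also at 0.11 without replicate 2 of the irradiated knockdown. SOD2 depended most on 1 library, with -0.38 without replicate 1 of the untreated knockdown and -1.76 without replicate 2.

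In WT cells the log2 changes of the 10 genes lay between -1.45 and 0.95. Of the 10 genes, 1 passed the test: SOD2 fell, with a log2 change of -1.45 (SE 0.347) and an adjusted p of 0.0488 by edgeR's quasi-likelihood test with Benjamini-Hochberg adjustment over all genes. That share lies beside a background of 1.65% of all genes called, 113 higher and 92 lower. Before adjustment, 4 of the 10 genes had a p below 0.05, as did 1734 of 12456 genes. The median log2 change of the 10 genes in WT was -0.26, that of all genes was -0.01, and 8 of the 10 were below 0 with 51.0% of all genes. Both irradiated WT libraries lay below both untreated WT libraries for BIRC2, TNFAIP2, ZC3H12A and SOD2, as they did for 23.0% of all genes. They lay above them for NFKB1 and RELB, as they did for 20.9% of all genes.

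**Figure D1:**
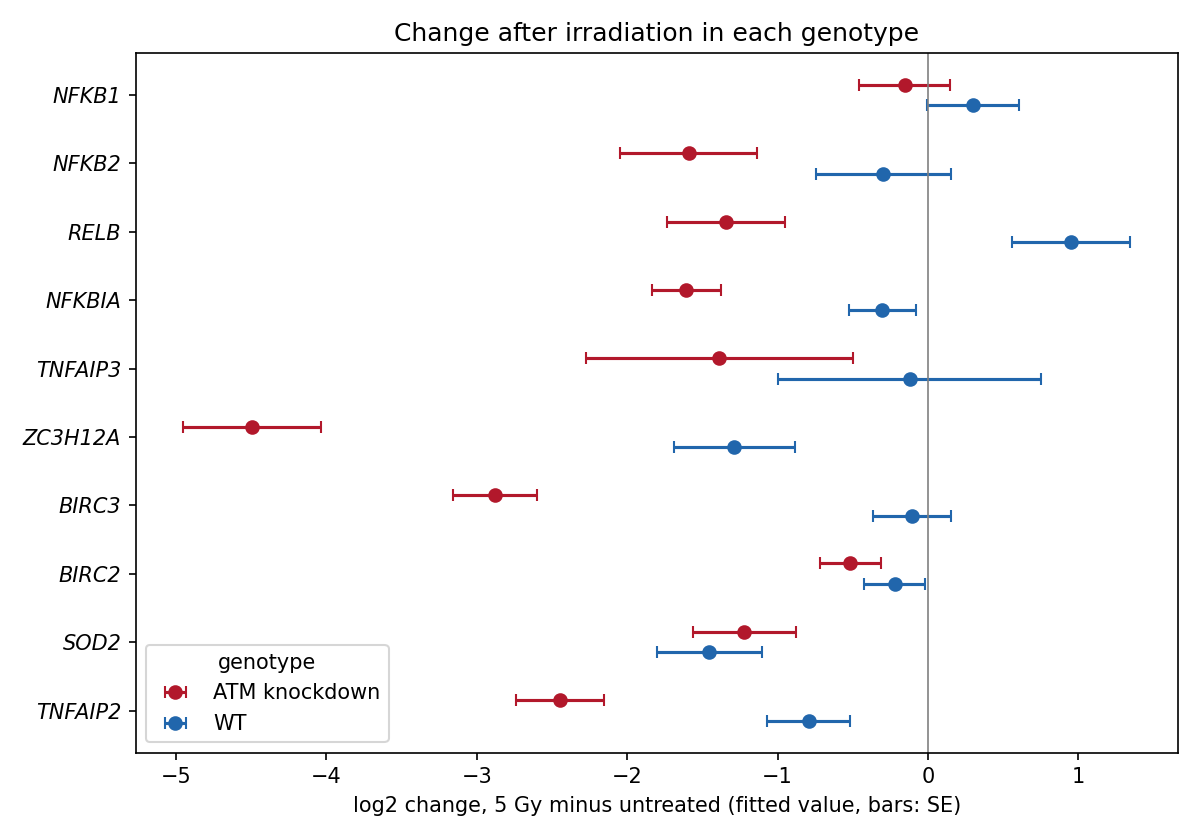
Fitted log2 change after irradiation (horizontal axis, irradiated minus untreated) of each of the 10 genes (rows) in ATM knockdown cells (red) and in WT cells (blue), with bars of 1 SE from the fit over 8 libraries. Knockdown values run from -4.50 for ZC3H12A to -0.15 for NFKB1, and WT values from -1.45 for SOD2 to 0.95 for RELB.

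The 3 subunit genes did not share a pattern. NFKB1 (ENSG00000109320.11, chromosome 4, 102501329 to 102617302, GRCh38, plus strand) encodes the p105 precursor of the p50 subunit. It was at 51.4 and 33.4 CPM in irradiated knockdown libraries and 39.4 and 55.5 CPM in untreated knockdown libraries. It was at 36.2 and 41.5 CPM in irradiated WT libraries and 28.8 and 35.1 CPM in untreated WT libraries. The knockdown groups overlapped, the irradiated WT libraries were a little above the untreated ones, and the WT change of 0.30 (SE 0.305) did not pass the test, with an adjusted p of 0.732 in edgeR. Cells with an NFKB1 count were 62.8% and 55.0% in irradiated knockdown, 57.6% and 74.4% in untreated knockdown, 64.9% and 67.4% in irradiated WT, and 39.5% and 50.0% in untreated WT.

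NFKB2 (ENSG00000077150.18, chromosome 10, 102394110 to 102402529, plus strand) encodes p100, the precursor of p52 in the non-canonical branch of the pathway. It was at 18.1 and 8.46 CPM in irradiated knockdown libraries and 39.6 and 40.4 CPM in untreated knockdown libraries. It was at 16.2 and 15.7 CPM in irradiated WT libraries and 12.1 and 27.5 CPM in untreated WT libraries. The untreated knockdown libraries were the highest, and the other 3 groups overlapped. The WT change was -0.30 (SE 0.447) with an adjusted p of 0.843 in edgeR, and it turned to 0.43 without replicate 2 of the untreated WT.

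RELB (ENSG00000104856.13, chromosome 19, 45001430 to 45038198, plus strand) encodes the subunit that pairs with p52. It was at 13.6 and 11.1 CPM in irradiated knockdown libraries and 36.0 and 27.0 CPM in untreated knockdown libraries. It was at 19.0 and 17.8 CPM in irradiated WT libraries and 9.03 and 10.3 CPM in untreated WT libraries. No 2 groups overlapped, a separation whose share over all genes was not counted. The order from the top was untreated knockdown, irradiated WT, irradiated knockdown and untreated WT. Irradiated libraries were thus lower in knockdown and higher in WT, where the change of 0.95 (SE 0.392) did not pass the test (adjusted p 0.279 in edgeR). Cells with a RELB count followed the same directions, with 37.2% and 25.0% in irradiated knockdown, 54.5% and 43.6% in untreated knockdown, 51.4% and 41.3% in irradiated WT, and 18.6% and 17.4% in untreated WT.

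Sequences just ahead of the start sites are shown for 5 genes, since NF-κB is known to act there. They were picked after the search: 4 genes with a match, and BIRC2 as the neighbour of BIRC3 without one. Each line is the 250 bases before an annotated start, 5′ to 3′ on the gene's strand, from RefSeq on GRCh38.p14, and capitals mark matches on either strand to the consensus κB site, the 10-base element that NF-κB dimers bind.
NFKBIA, chr14:35404750-35404999, minus strand: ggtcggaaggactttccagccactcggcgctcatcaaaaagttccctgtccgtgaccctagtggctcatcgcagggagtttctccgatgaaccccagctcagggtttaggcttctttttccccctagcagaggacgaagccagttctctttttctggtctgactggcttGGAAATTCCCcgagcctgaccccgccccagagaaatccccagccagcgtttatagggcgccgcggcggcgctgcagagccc
TNFAIP3, chr6:137867009-137867258, plus strand: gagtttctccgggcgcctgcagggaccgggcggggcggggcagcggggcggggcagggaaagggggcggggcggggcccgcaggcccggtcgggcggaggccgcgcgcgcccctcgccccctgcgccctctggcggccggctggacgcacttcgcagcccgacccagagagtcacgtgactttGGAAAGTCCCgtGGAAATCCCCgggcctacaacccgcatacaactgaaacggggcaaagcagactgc
BIRC3, chr11:102317234-102317483, plus strand: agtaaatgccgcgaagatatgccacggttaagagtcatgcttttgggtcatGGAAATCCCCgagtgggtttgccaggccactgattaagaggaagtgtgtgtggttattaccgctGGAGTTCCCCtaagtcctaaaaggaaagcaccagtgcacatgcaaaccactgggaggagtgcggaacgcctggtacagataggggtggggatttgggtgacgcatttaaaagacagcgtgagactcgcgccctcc
BIRC2, chr11:102346964-102347213, plus strand: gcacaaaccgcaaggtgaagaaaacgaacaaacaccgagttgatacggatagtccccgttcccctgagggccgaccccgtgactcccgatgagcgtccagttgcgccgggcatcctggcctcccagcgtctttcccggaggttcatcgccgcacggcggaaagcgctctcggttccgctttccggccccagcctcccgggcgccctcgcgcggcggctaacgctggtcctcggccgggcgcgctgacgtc
NFKB1, chr4:102501109-102501358, plus strand: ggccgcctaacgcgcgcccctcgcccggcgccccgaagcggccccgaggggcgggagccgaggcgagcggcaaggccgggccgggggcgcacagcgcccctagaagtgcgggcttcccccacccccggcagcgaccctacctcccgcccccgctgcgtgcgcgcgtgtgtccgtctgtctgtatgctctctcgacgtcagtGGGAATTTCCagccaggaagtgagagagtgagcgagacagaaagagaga
NFKBIA has 1 match, 81 bases before the start, TNFAIP3 has 2, at 67 and 55 bases, BIRC3 has 2, at 199 and 135 bases, and NFKB1 has 1, at 49 bases. The TNFAIP3 matches precede this RefSeq start, but they lie inside the span given for the gene below, which begins at 137867188. The BIRC2 window, from the gene next to BIRC3, has none. The same 10 letters, GGAAATCCCC, occur in the TNFAIP3 and the BIRC3 window. The RefSeq set used here held 16 windows for 9 of the 10 genes. It held none for RELB, which was therefore not searched. Of the 16, 6 windows (37.5%) had a match within the 250 bases, from NFKBIA, TNFAIP3, BIRC3, NFKB1 and 2 starts of NFKB2. Of all 35116 windows, 3956 (11.27%) had a match within 300 bases, the 250 before the start and 50 after it. The 16 windows were searched over the same 300 bases. In NFKB2 some matches overlap each other, and all lie inside the gene span given above. The windows of BIRC2, TNFAIP2, SOD2 and ZC3H12A held no match, which says only that those letters are absent from these windows.

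Among the feedback genes, NFKBIA (ENSG00000100906.10, chromosome 14, 35401511 to 35404749, minus strand) encodes IκBα, the inhibitor that NF-κB resynthesises to end its own activity. It was at 158 and 88.2 CPM in irradiated knockdown libraries and 349 and 403 CPM in untreated knockdown libraries. It was at 370.0 and 519 CPM in irradiated WT libraries and 618 and 496 CPM in untreated WT libraries. The irradiated knockdown libraries lay below the rest, the untreated knockdown overlapped irradiated WT, and the WT groups overlapped. The WT change was -0.30 (SE 0.224), with an adjusted p of 0.594 in edgeR. Most cells kept a count in every group, 86.0% and 82.5% in irradiated knockdown, 93.9% and 97.4% in untreated knockdown, and at least 97.3% in the 4 WT libraries. The count per cell differed more: in cells with a count the median was 7 in both irradiated knockdown libraries, 24 and 18 in untreated knockdown, 23 and 30 in irradiated WT, and 44 and 32 in untreated WT.

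ZC3H12A (ENSG00000163874.10, chromosome 1, 37474552 to 37484379, plus strand) encodes regnase-1, an endonuclease that destroys inflammatory mRNAs, IL6 among them. It was at 2.17 and 2.06 CPM in irradiated knockdown libraries and 46.5 and 49.8 CPM in untreated knockdown libraries. It was at 7.62 and 6.71 CPM in irradiated WT libraries and 22.3 and 13.3 CPM in untreated WT libraries. No 2 groups overlapped, a separation whose share over all genes was not counted. Within each genotype the irradiated libraries were the lower pair. In knockdown the irradiated mean was 95.6% below the untreated mean. In WT the irradiated mean was 59.7% below the untreated mean, a log2 change of -1.29 (SE 0.403) that did not pass the test, with an adjusted p of 0.137 in edgeR and a range of 0.0541 to 0.475 over the alternatives. Few irradiated knockdown cells had a count, 4 of 43 and 2 of 40 cells, against 16 of 33 and 18 of 39 untreated knockdown cells, and the median count where present was 1 in both irradiated knockdown libraries and 5.5 and 6 in untreated knockdown.

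TNFAIP3 (ENSG00000118503.14, chromosome 6, 137867188 to 137883312, plus strand) encodes A20, a ubiquitin-editing enzyme that shuts down signalling to the kinase complex. Its transcript was sparse, at 2.93 and 4.28 CPM in irradiated knockdown libraries, 9.09 and 9.91 CPM in untreated knockdown libraries, 2.90 and 4.88 CPM in irradiated WT libraries, and 7.30 and 1.35 CPM in untreated WT libraries. The untreated knockdown libraries were the highest and the other groups overlapped. A single cell held 67.2% and 86.7% of the TNFAIP3 counts of the irradiated knockdown libraries and 77.8% of those of replicate 2 of the untreated WT. Without the largest cell of each library the knockdown change was -3.11, against -1.39 with all cells. In WT the change was -0.12 (SE 0.874) with an adjusted p of 0.980 in edgeR, and it turned to 1.52 without replicate 1 of the untreated WT. An antisense gene overlaps TNFAIP3, and whether counting used the strand is not given in the sources used here.

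Among the survival genes, BIRC3 (ENSG00000023445.13, chromosome 11, 102317450 to 102339403, plus strand) encodes cIAP2, a ubiquitin ligase that blocks cell death at the tumour necrosis factor receptor. It was at 42.2 and 30.8 CPM in irradiated knockdown libraries and 245 and 295 CPM in untreated knockdown libraries. It was at 86.1 and 138 CPM in irradiated WT libraries and 94.1 and 150.3 CPM in untreated WT libraries. The untreated knockdown libraries were the highest, the irradiated knockdown libraries the lowest, and the WT groups overlapped between them. The WT change was -0.11 (SE 0.258), with an adjusted p of 0.916 in edgeR, and it turned to 0.18 without replicate 1 of the irradiated WT and to 0.29 without replicate 2 of the untreated WT. In replicate 1 of the irradiated knockdown 1 cell held 620 counts, 74.2% of the BIRC3 counts, and without it the library was at 11.3 CPM. Without the largest cell of each library the knockdown change was -3.75.

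Shares of cells showed the BIRC3 difference too. A count was found in 12 of 43 and 21 of 40 irradiated knockdown cells, 27.9% (exact Clopper-Pearson 95% interval 15.3% to 43.7%) and 52.5% (36.1% to 68.5%). In untreated knockdown cells it was found in 26 of 33 and 37 of 39, 78.8% (61.1% to 91.0%) and 94.9% (82.7% to 99.4%). In irradiated WT the shares were 64.9% and 80.4%, and in untreated WT 76.7% and 78.3%. In cells with a count the median was 2.5 and 3 in irradiated knockdown, 19.5 and 19 in untreated knockdown, 5 in both irradiated WT libraries, and 6 and 7 in untreated WT. Both the share and the amount per positive cell were thus lowest in irradiated knockdown and, for the amount, highest in untreated knockdown. Intervals cover counting error within a library only.

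BIRC2 (ENSG00000110330.8, chromosome 11, 102347211 to 102378670, plus strand) encodes the related ligase cIAP1 and starts 7807 bases beyond the end of BIRC3, with no annotated gene between them. It was at 74.4 and 81.1 CPM in irradiated knockdown libraries and 122 and 102 CPM in untreated knockdown libraries. It was at 129 and 132 CPM in irradiated WT libraries and 134 and 175 CPM in untreated WT libraries. The groups lay in that order from low to high with no overlap, a separation whose share over all genes was not counted. The span was much narrower than for BIRC3: the irradiated knockdown mean was 30.4% below the untreated one for BIRC2, and 86.5% below it for BIRC3. The WT change of -0.22 (SE 0.201) did not pass the test (adjusted p 0.685 in edgeR), and it was 0.00058 without replicate 2 of the untreated WT. The share of cells with a BIRC2 count was 87.5% to 90.9% in the 4 knockdown libraries and 94.6% to 100% in the 4 WT libraries. The genes are paralogs, and how reads shared between them were counted is not given in the sources used here.

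SOD2 (ENSG00000112096.16, chromosome 6, 159669057 to 159745186 for the next version of the identifier, minus strand) encodes the mitochondrial manganese superoxide dismutase, which removes superoxide. It was at 214 and 188 CPM in irradiated knockdown libraries and 674 and 263 CPM in untreated knockdown libraries. It was at 72.4 and 60.2 CPM in irradiated WT libraries and 242 and 127 CPM in untreated WT libraries. Irradiated libraries were below untreated ones in both genotypes, and knockdown libraries were above WT ones at both treatments. The WT fall passed the test in 15 of 19 alternatives, with adjusted p-values of 4.76e-12 to 0.145. It did not pass by DESeq2's Wald test, with only the groups compared in the fit, without replicate 2 of the irradiated WT or without replicate 1 of the untreated WT, where the change was -0.94.

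Single cells weighed on the SOD2 sums. One untreated knockdown library, replicate 1, had 53.4% of its SOD2 counts in 1 cell, and without that cell it was at 325 CPM. Replicate 1 of the untreated WT had 29.9% in 1 cell and was at 172 CPM without it. Without the largest cell of each library the WT change was -1.16, with an adjusted p of 0.0269 in edgeR, and the knockdown change was -0.77. Cells with a SOD2 count were 88.4% and 77.5% in irradiated knockdown, 97.0% and 79.5% in untreated knockdown, 70.3% and 69.6% in irradiated WT, and 93.0% and 87.0% in untreated WT, so in WT the share was lower after irradiation in both libraries and in knockdown the groups overlapped. In the annotation another protein-coding identifier with the symbol SOD2 overlaps it on the same strand, the coding gene WTAP overlaps it on the other strand, and 1 pseudogene carries its name, so the SOD2 values are less certain than the others.

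TNFAIP2 (ENSG00000185215.8, chromosome 14, 103123442 to 103137439, plus strand) was named for its induction by tumour necrosis factor. It was at 34.0 and 15.3 CPM in irradiated knockdown libraries and 144 and 125 CPM in untreated knockdown libraries. It was at 102 and 134 CPM in irradiated WT libraries and 212 and 203 CPM in untreated WT libraries. Irradiated knockdown was lowest and untreated WT highest, and the other groups overlapped. The WT change was -0.79 (SE 0.276) with an adjusted p of 0.184 in edgeR, and it passed the test with no filter on low genes (0.00937), without cells above 2 times the median (0.0247) and without replicate 2 of the irradiated knockdown (0.0489). A TNFAIP2 count was found in 53.5% and 40.0% of irradiated knockdown cells, against 93.9% and 92.3% of untreated knockdown cells, and the 4 WT libraries ranged from 91.3% to 95.7%.

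**Figure D2:**
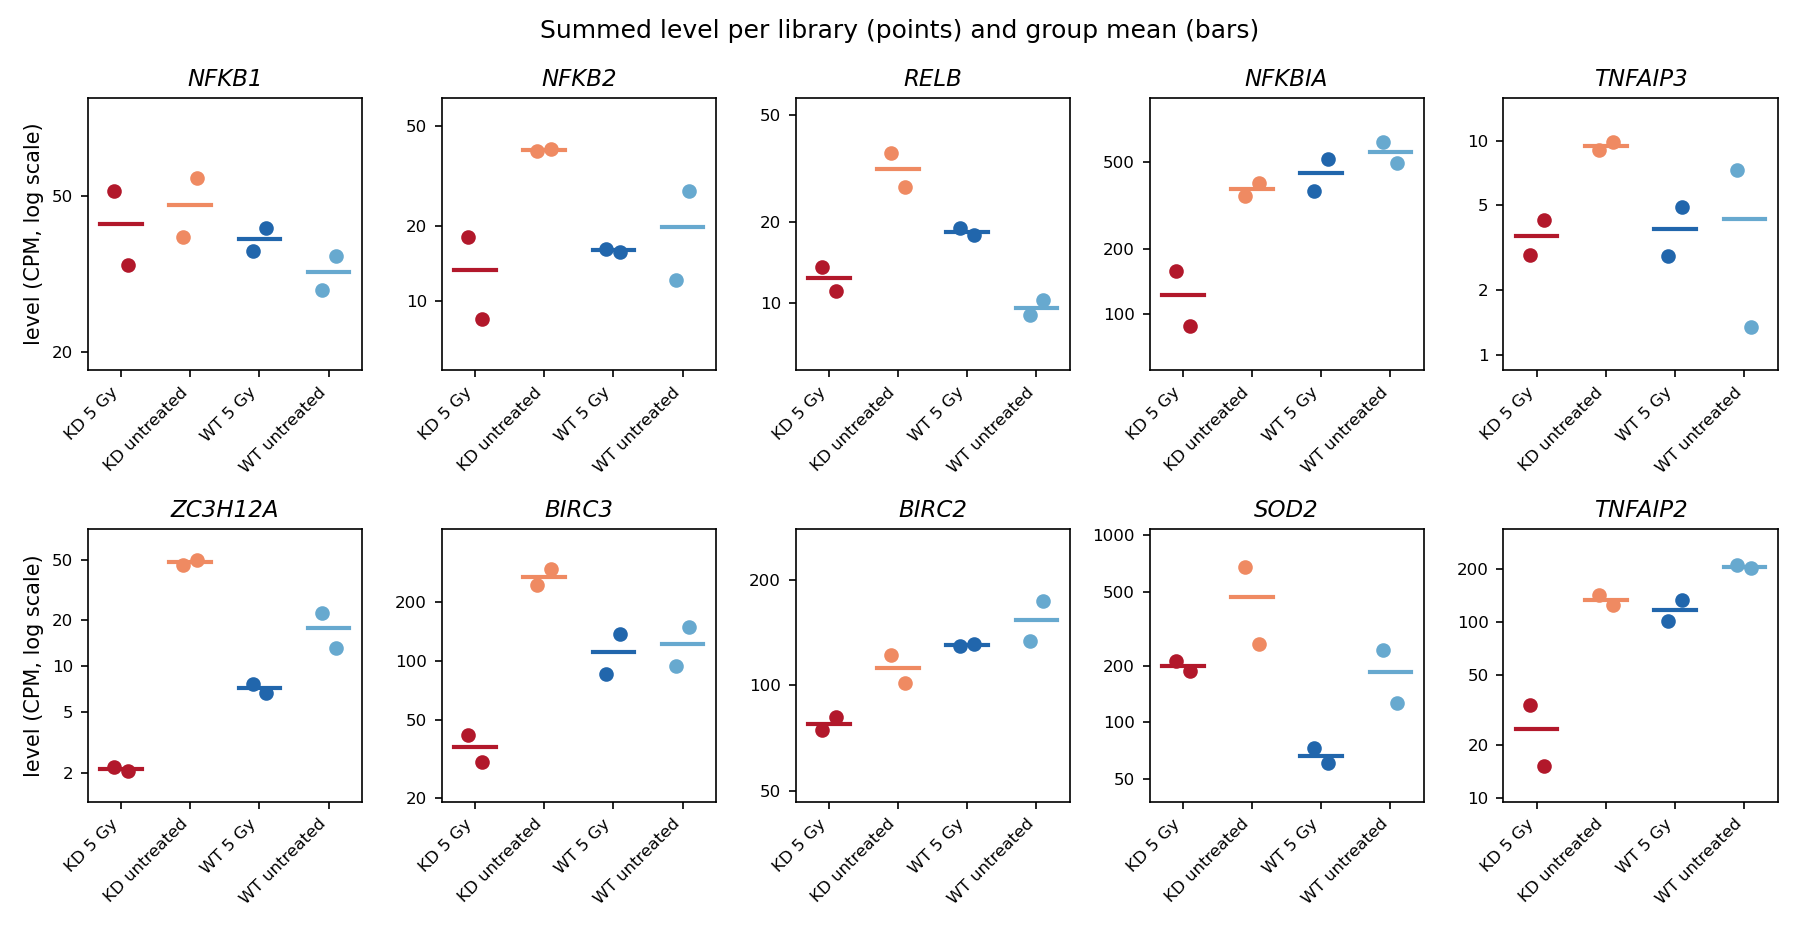
Level of each gene in each of the 8 libraries (points, CPM on a log axis with its own range in each panel) and the mean of each group of 2 (bars), for ATM knockdown (KD) and WT cells at 5 Gy or untreated. Irradiated knockdown libraries lie below untreated knockdown libraries in every panel but NFKB1, and SOD2 is higher in knockdown than in WT libraries at both treatments.

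Read over the 4 groups, the genes differed in where the untreated knockdown cells stood. BIRC3, ZC3H12A, RELB, NFKB2, TNFAIP3, NFKB1 and SOD2 were higher in untreated knockdown than in untreated WT in both libraries, with log2 differences of 1.08 (SE 0.260), 1.38 (SE 0.395), 1.65 (SE 0.396), 0.96 (SE 0.447), 1.08 (SE 0.877), 0.51 (SE 0.305) and 1.30 (SE 0.343). NFKBIA, TNFAIP2 and BIRC2 were lower there in both libraries, at -0.62 (SE 0.224), -0.68 (SE 0.275) and -0.52 (SE 0.202). Of all genes, 27.5% were higher and 24.0% lower without overlap in that comparison of summed CPM. By mean CPM per cell, SOD2 (ratio of knockdown to WT 1.58) and TNFAIP3 (1.37) overlapped between untreated knockdown and untreated WT. By the share of cells with a count, SOD2 (ratio 0.98) and TNFAIP2 (0.99) overlapped. Without replicate 2 of the untreated knockdown the differences were 0.96 for BIRC3, 1.35 for ZC3H12A, 1.86 for RELB, 0.96 for NFKB2, 1.04 for TNFAIP3, 0.26 for NFKB1 and 1.83 for SOD2, and they were -0.71 for NFKBIA, -0.57 for TNFAIP2 and -0.38 for BIRC2. Other libraries moved some of them more. SOD2 was at 0.45 without replicate 1 of the untreated knockdown. TNFAIP3 was at 2.73 and NFKB2 at 0.47 without replicate 1 of the untreated WT, and they were at 0.34 and 1.69 without replicate 2.

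Among irradiated cells, knockdown was below WT in both libraries for BIRC3 at -1.69 (SE 0.267), ZC3H12A at -1.82 (SE 0.424), TNFAIP2 at -2.33 (SE 0.291), NFKBIA at -1.93 (SE 0.232), BIRC2 at -0.81 (SE 0.203) and RELB at -0.65 (SE 0.390). SOD2 was above WT at 1.53 (SE 0.348). TNFAIP3, NFKB2 and NFKB1 overlapped in summed CPM. Of all genes, 22.6% were lower and 29.6% higher without overlap in summed CPM. By the share of cells with a count, TNFAIP3 (ratio of knockdown to WT 0.55) and NFKB1 (0.89) were lower without overlap. TNFAIP3 was also lower without overlap by mean CPM per cell (0.51). The share of all genes separated in these ways was not counted. Without the largest cell of each library the TNFAIP3 difference was -1.65, against -0.18 with all cells. So, in summed CPM, BIRC3, ZC3H12A and RELB stood above WT in untreated knockdown cells and below WT in irradiated ones. NFKBIA, TNFAIP2 and BIRC2 stood below WT in both, and SOD2 stood above WT in both. For untreated cells the SOD2 order did not hold by the per-cell measures, in which knockdown and WT libraries overlapped. The knockdown change minus the WT change was -2.77 (SE 0.372) for BIRC3, -3.21 (SE 0.580) for ZC3H12A, -2.30 (SE 0.555) for RELB, -1.65 (SE 0.393) for TNFAIP2 and -1.30 (SE 0.318) for NFKBIA. Without replicate 2 of the untreated knockdown these were -2.65, -3.18, -2.51, -1.77 and -1.22 in the same order. The same difference was -1.30 (SE 0.633) for NFKB2, -1.26 (SE 1.24) for TNFAIP3, -0.46 (SE 0.430) for NFKB1 and -0.29 (SE 0.285) for BIRC2. Without that replicate it was -1.30 for NFKB2, -1.22 for TNFAIP3, -0.21 for NFKB1 and -0.44 for BIRC2. It was 0.23 (SE 0.480) for SOD2, whose value was -0.30 without replicate 2 of the untreated knockdown, 1.08 without its replicate 1 and -0.29 without replicate 1 of the untreated WT. Over all genes 0.185% passed edgeR's test of that difference, which is not read for the 10 genes. These comparisons share libraries, so they are not separate evidence.

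**Figure D3:**
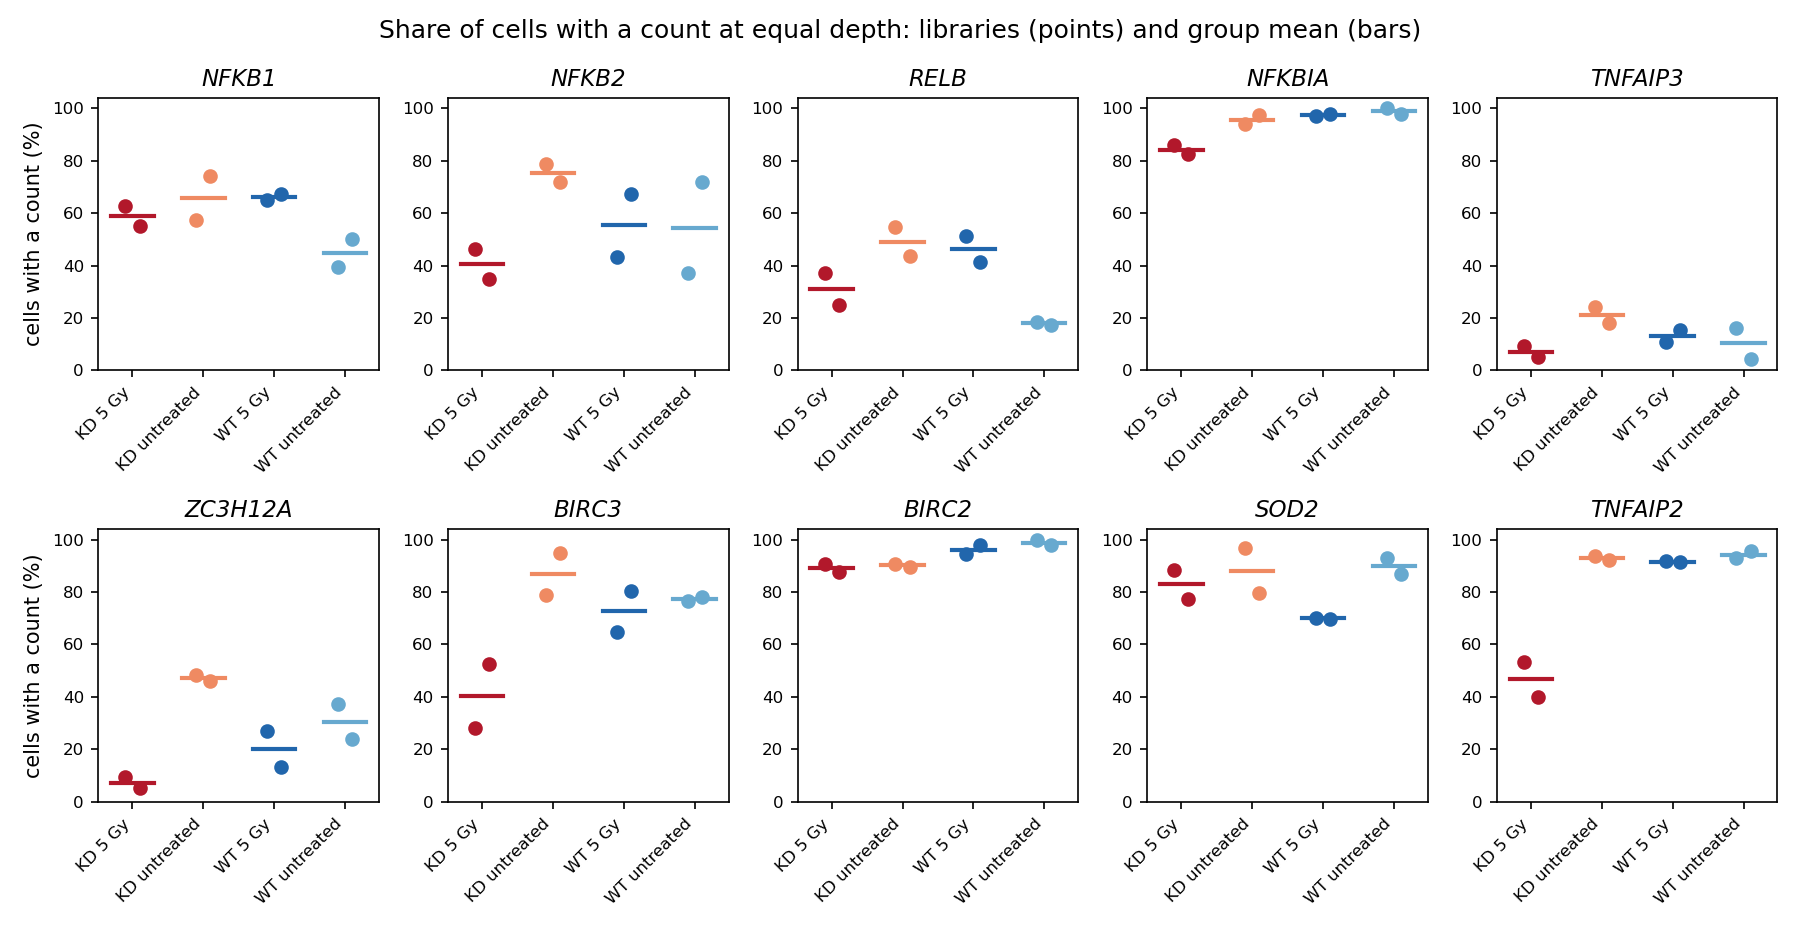
Share of cells with at least 1 count of each gene (vertical axis, percent) after thinning every cell to 71000 counts, per library (points) and as the mean of each group of 2 (bars). In TNFAIP2 the irradiated knockdown libraries sit at 53.5% and 40.0% and all others at 91.3% or more, whereas in BIRC2 and NFKBIA most cells have a count in every library.

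Thinning kept 83 of 86 irradiated knockdown cells, 72 of 85 untreated knockdown cells, 83 of 96 irradiated WT cells and 89 of 96 untreated WT cells. In these cells, 7 of the 10 genes had a lower share of positive cells in both irradiated knockdown libraries than in both untreated knockdown libraries, BIRC2, SOD2 and NFKB1 being the exceptions. Of all 12456 genes, 6.98% were lower in that way and 39.8% higher, and since this contrast chose the genes nothing is read from the count. Without thinning, cells with a BIRC3 count were 46.5% and 58.1% in irradiated knockdown, 90.2% and 95.5% in untreated knockdown, 66.7% and 93.8% in irradiated WT, and 91.7% in both untreated WT libraries. On average a cell had counts of 5.12 and 4.65 of the 10 genes in irradiated knockdown, 7.18 and 7.08 in untreated knockdown, 6.16 and 6.41 in irradiated WT, and 6.12 and 6.24 in untreated WT. Cells with at least 8 of the 10 genes were 9.30% and 2.50% in irradiated knockdown, 39.4% and 38.5% in untreated knockdown, 21.6% and 21.7% in irradiated WT, and 16.3% and 10.9% in untreated WT. Irradiated knockdown cells thus had counts of the fewest of these genes, and untreated knockdown cells of the most. At the same thinned depth the median number of all genes found per cell ran the other way within knockdown, 6067 and 5811 in irradiated and 5318 and 5186 in untreated libraries. The mitochondrial share of counts was 10.9% and 11.7% in irradiated knockdown, 12.5% and 13.4% in untreated knockdown, 10.2% and 10.6% in irradiated WT, and 10.2% and 10.1% in untreated WT, and its part in these differences was not tested.

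**Figure D4:**
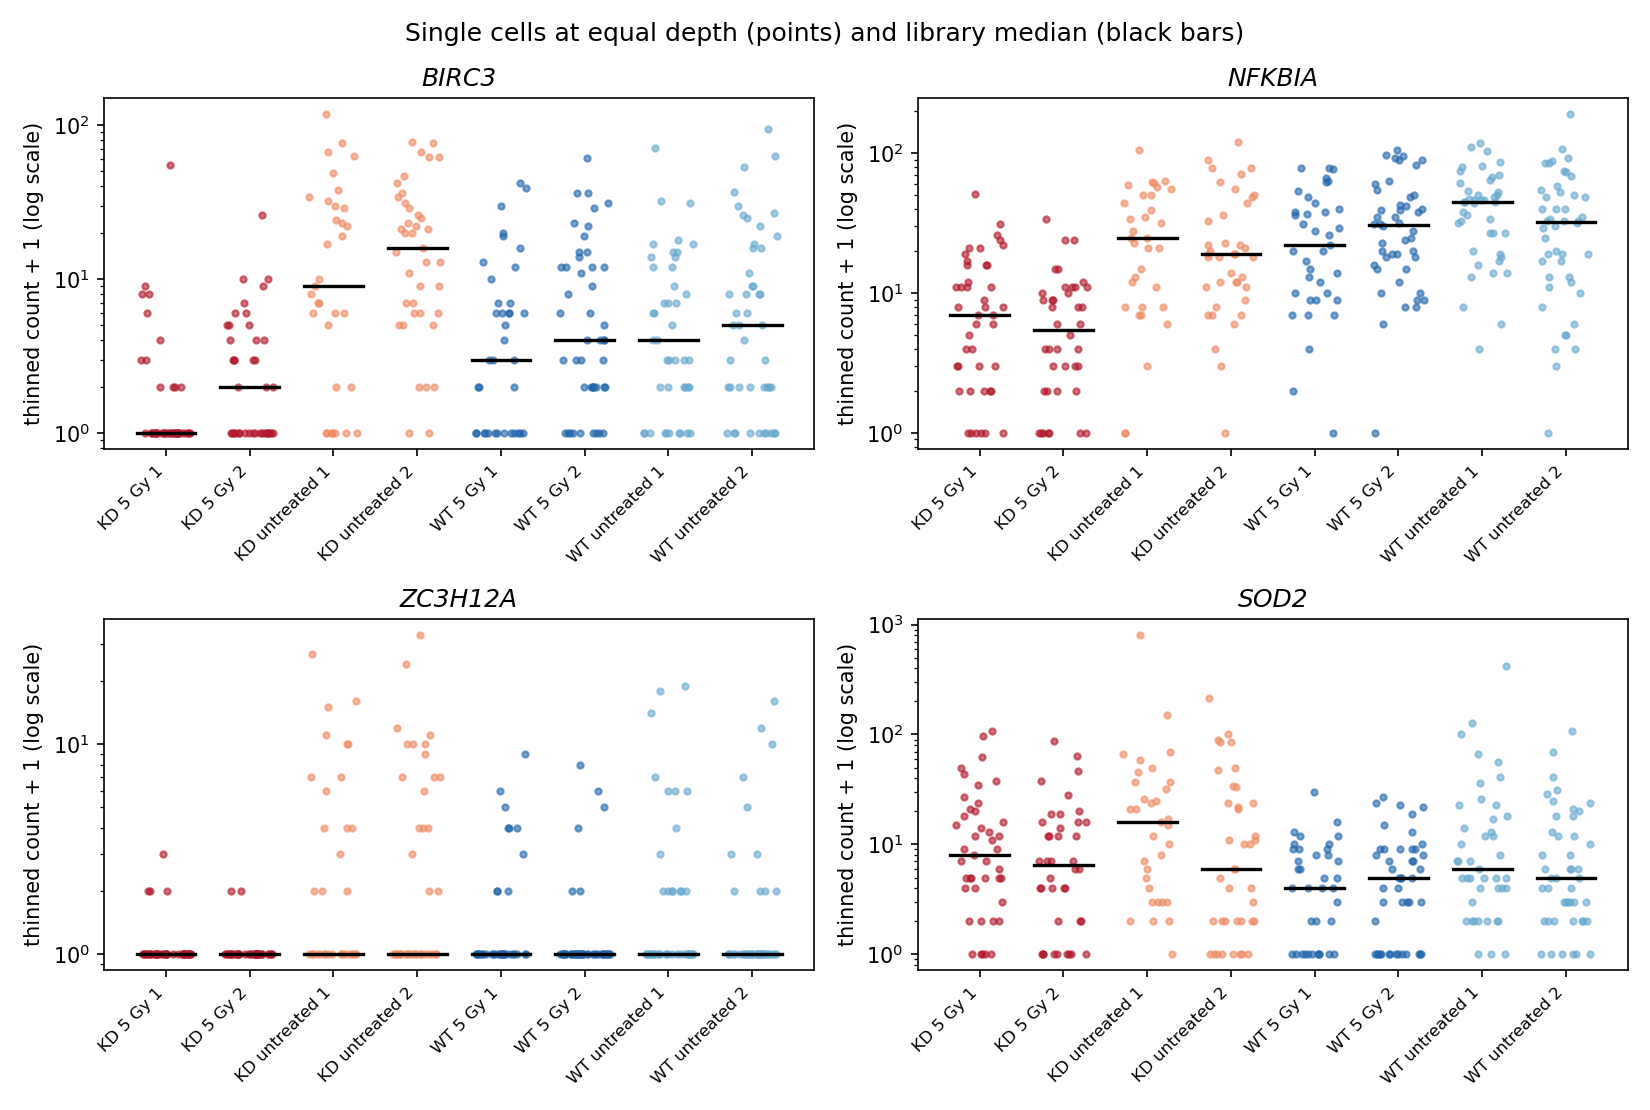
Thinned count plus 1 (log axis) of BIRC3, NFKBIA, ZC3H12A and SOD2 in each of 327 cells (points), by library, with the library median (black bars). NFKBIA is lower across the bulk of irradiated knockdown cells, ZC3H12A has a count in 6 of 83 irradiated knockdown cells, and SOD2 has single cells far above the rest in replicate 1 of the untreated knockdown and of the untreated WT.

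From cell to cell the genes were only weakly related. Spearman's rho was taken within each library, over its 33 to 46 thinned cells, and each of the 45 pairs was given its median over the 8 libraries. The median of the 45 pairs was 0.0462, and they ran from -0.112 to 0.257. The largest were TNFAIP2 with ZC3H12A at 0.257, BIRC3 with ZC3H12A at 0.233, BIRC3 with TNFAIP3 at 0.221, BIRC3 with NFKB2 at 0.218 and NFKBIA with ZC3H12A at 0.203. Only 2 pairs were above 0 in all 8 libraries, BIRC3 with NFKB2 and BIRC3 with NFKBIA (0.156). Cells of a library share its preparation, and with sparse counts such weak values are descriptions only. The order changed with the depth: at 35500 counts per cell TNFAIP3 with NFKBIA was the highest pair at 0.252 and BIRC3 with NFKB2 was at 0.0924, and 2 pairs exceeded 0.2, against 5 at 71000 counts. Without cells above 2 times the median total, 1 pair did. Cells with a CXCL8 count averaged more NFKBIA, TNFAIP2, BIRC2 and TNFAIP3 than cells without one in all 4 WT libraries. That held in 3 WT libraries for BIRC3, ZC3H12A, NFKB1 and NFKB2, in 2 for SOD2 and in 1 for RELB. In the 4 knockdown libraries it held in 3 for TNFAIP2 and ZC3H12A, and in 2 for TNFAIP3, BIRC3, SOD2 and RELB. It held in 1 for NFKBIA, BIRC2 and NFKB2 and in 0 for NFKB1. Cells with a CXCL8 count numbered 6 and 22 in irradiated WT libraries and 22 and 9 in untreated WT. They numbered 5 and 4 in irradiated knockdown and 21 and 28 in untreated knockdown. Some margins were small, and the share of all genes with such a difference was not counted, so nothing is read from these counts.

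**Figure D5:**
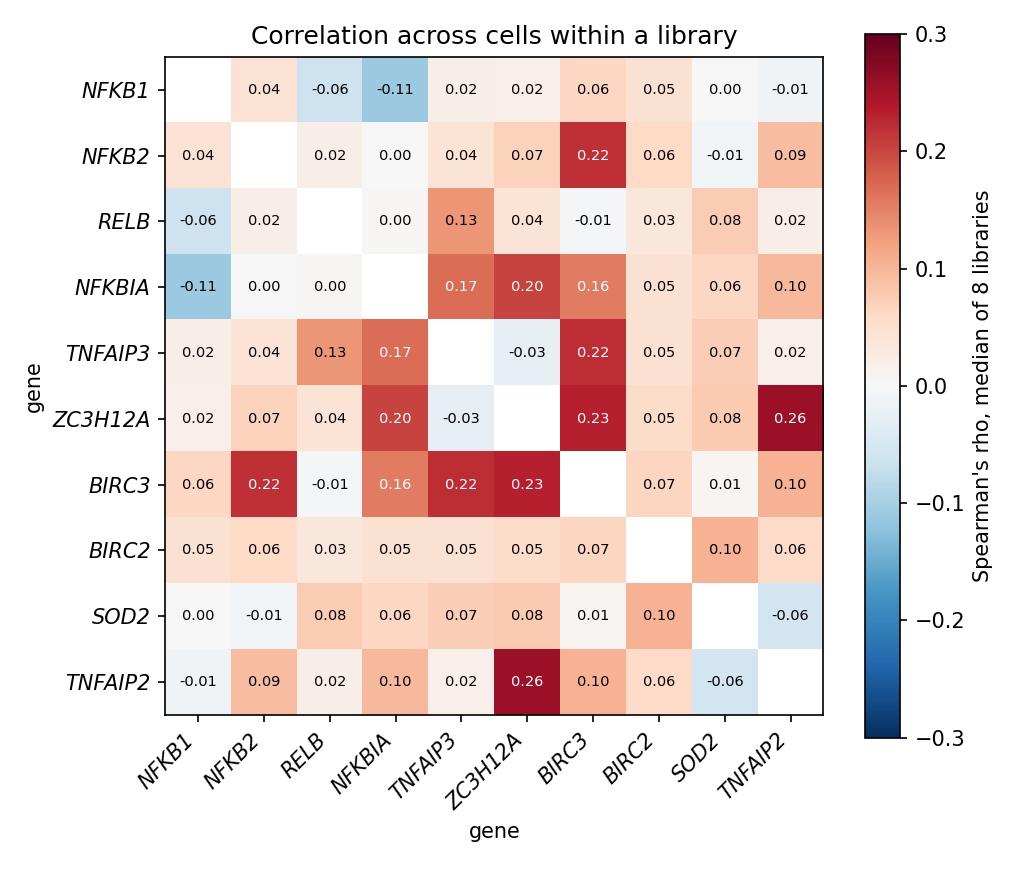
Spearman's rho across the thinned cells of a library for each pair of the 10 genes, given as the median over 8 libraries (colour and number). Values run from -0.11 to 0.26, with the highest between TNFAIP2 and ZC3H12A.

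Other genes of the pathway were read from 8 lists of ligands and receptors, adaptors and kinases, other subunits and IκB proteins, other feedback genes, other survival genes, inflammatory targets, carriers of the signal from DNA breaks, and antioxidant enzymes, of which 123 of 133 genes were tested. In knockdown cells 8 of the 123 fell and none rose by edgeR's test after irradiation, beside 0.193% of all genes lower and 0.0321% higher. All 8 were among the 18 tested inflammatory targets, whose median log2 change was -1.27, against 0.01 for all genes. They included TNFSF10, the death ligand TRAIL, at -2.34 (SE 0.246, adjusted p 0.000366), and the chemokines CXCL8 at -5.80 (SE 0.696, adjusted p 0.00102), CXCL2 at -5.82 (SE 0.735, adjusted p 0.00144) and CXCL1 at -4.66 (SE 0.596, adjusted p 0.00147), all in edgeR. All 8 were still called without replicate 2 of the untreated knockdown. The lists were drawn up with these libraries' earlier results known, so neither the counts nor the p-values are independent evidence of a direction.

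No tested gene of the other lists passed in knockdown cells after irradiation, and the lack of a call does not show that a gene was unchanged. Of 7 other subunits and IκB proteins none passed the test in either genotype, and their medians were -0.80 in knockdown and 0.02 in WT. RELA, the p65 subunit, was at 105 and 99.1 CPM in irradiated knockdown libraries, 95.5 and 119 CPM in untreated knockdown, 121 and 84.5 CPM in irradiated WT, and 103 and 102 CPM in untreated WT, and its log2 change was -0.07 (SE 0.216) in knockdown. BCL3, an IκB protein that acts in the nucleus, came nearest to the threshold in knockdown, at -1.87 (SE 0.379, adjusted p 0.0631 in edgeR), and NFKBIZ, another nuclear IκB protein, was at -1.36 (SE 0.367, adjusted p 0.189 in edgeR). Both were named after their values were seen. REL, the c-Rel subunit, had a change of -1.17 (SE 0.510, adjusted p 0.518 in edgeR) in knockdown and 0.06 (SE 0.504) in WT. IKBKG, the regulatory subunit of the kinase complex, was sparse, with a change of -0.07 (SE 1.30), ATM itself was at -0.78 (SE 0.415), and TNF was not analysed here. None of the 25 tested adaptors and kinases, 15 ligands and receptors, 20 feedback genes, 12 survival genes, 16 carriers of the DNA break signal or 17 antioxidant enzymes passed in knockdown. Their medians lay between -0.23 and -0.04.

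In WT cells 2 of the 123 list genes fell and 1 rose after irradiation, beside 0.739% and 0.907% of all genes. CXCL1 fell, at -2.94 (SE 0.550, adjusted p 0.0178), as did ZFP36L1, an RNA-binding protein that destabilises mRNAs, at -1.01 (SE 0.232, adjusted p 0.0420), and IRAK1, a kinase below interleukin-1 receptors, rose by 0.79 (SE 0.177, adjusted p 0.0376), all in edgeR. None of these 3 passed without cells above 2 times the median total (adjusted p 0.0686 to 0.178 in edgeR) or with only the groups compared in the fit (0.0684 to 0.147). CXCL1 also missed the threshold by limma and without replicate 2 of the irradiated WT, ZFP36L1 without replicate 1 of the irradiated WT, and IRAK1 by limma and without any 1 of the 4 WT libraries. The inflammatory targets had a median of -0.10 in WT.

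Over the 8 libraries, the genes whose level most resembled the mean of the 10 were CXCL2 (Pearson's r 0.944), CXCL8 (0.940), CLDND1 (0.940), WDR54 (0.924) and IL6 (0.922), among 5025 genes compared on log2(CPM + 1). The libraries fall into 4 groups, so these values order genes and carry no p. IL6, an inflammatory cytokine, was at 20.8 and 21.8 CPM in irradiated knockdown libraries, 159 and 197 CPM in untreated knockdown, 22.2 and 73.7 CPM in irradiated WT, and 50.9 and 50.2 CPM in untreated WT.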

How the data were processed

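The authors deposited, per sample, a table of whole-number counts of coding genes in single cells of MDA-MB-231. Per the submitters' processing notes, Trimmomatic 0.36, HISAT2 2.1.0, HTSeq 0.9.1 and hg38 were used; whether counts are reads or unique molecules is not given in the sources used here, so intervals cover counting error only. Cell labels are running numbers within a library, so shared barcodes could not be counted. Genes not listed in a table were set to 0.

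Cells with at least 1000 genes and 5000 counts were kept; the 15 left out were all knockdown cells. Counts were summed per library, which the 10 largest cells supply with 39.3% to 54.9% of the total. After filterByExpr and TMM scaling, edgeR 4.0.16 was run (quasi-likelihood, 4 groups in 1 fit, threshold 0.05, Benjamini-Hochberg over 12456 genes). The fit had 4 residual degrees of freedom and a common biological coefficient of variation of 0.458. Data were simulated for the WT comparison with 200 changed genes among 12162. Those 200 were drawn only where the mean log2 CPM reached 5. Among them 62% of 2-fold and 100% of 4-fold changes were recovered, with 12 false calls. TNFAIP3, RELB, ZC3H12A and NFKB2 had lower means (2.44, 4.17, 4.23 and 4.48), so these shares do not cover them.

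The 10 genes, the lists and the markers were chosen with earlier results of these data known. Named genes were the 10 in every contrast, at most 4 called genes of smallest p per list and contrast, RELA, REL, TNF, IKBKG and ATM, and the 5 most alike genes; others were named after their values were seen. Pseudocount 1 was used for log2(CPM + 1). Per-cell measures used counts thinned to 71000 with a fixed seed. Positions came from GENCODE 29 (9 of 10 identifiers in the same version) and sequences from RefSeq. R 4.3.3, limma 3.58.1, DESeq2 1.42.0, Python 3.11.15, numpy 2.4.6, scipy 1.17.1, pandas 2.3.3 and matplotlib 3.10.9 were used. Values of 1 marker list are not reported here. Alternatives were other scalings, filters, cell sets and tests, and each library left out.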

Additional observations from a re-analysis of the deposited data

Results flagged for a closer look

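These results were flagged because the fitted irradiation response differed between knockdown and WT libraries. For RELB that difference was not tested, and it is given as a description only. RELB is given because both irradiated knockdown libraries lay below their untreated libraries, while both irradiated WT libraries lay above theirs. Taken separately, 19.1% of all genes were lower without overlap in irradiated knockdown, and 20.9% were higher without overlap in irradiated WT. The share of all genes with both was not counted, so the opposite directions of RELB cannot be told from this background. The WT change did not pass its test (adjusted p 0.279 in edgeR). The knockdown change minus the WT change was -2.30 on the log2 scale, and -2.51 without replicate 2 of the untreated knockdown. edgeR's test of this difference is not read for RELB, because the gene was chosen with knockdown results known.

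Outside the 10 genes, 6 inflammatory targets passed edgeR's test of the difference itself, all with the lower change in knockdown. The difference was -6.45 (SE 0.921, adjusted p 0.00727) for CXCL2, -5.002 (SE 0.852, adjusted p 0.0336) for CXCL8, -3.004 (SE 0.530, adjusted p 0.0367) for IL6 and -4.73 (SE 0.846, adjusted p 0.0367) for CSF2. It was -6.79 (SE 1.23, adjusted p 0.0367) for CXCL3 and -1.77 (SE 0.333, adjusted p 0.0466) for TNFSF10. For CXCL3 the level was 0.454 and 0.0516 CPM in irradiated knockdown libraries, 12.4 and 17.9 CPM in untreated knockdown, 9.12 and 19.3 CPM in irradiated WT, and 12.4 and 2.70 CPM in untreated WT, so the fitted value rests on libraries near 0. Of all genes, 0.185% passed that test. Without replicate 2 of the untreated knockdown all 6 passed, with differences between -6.53 and -1.99. Without cells above 2 times the median total TNFSF10 (adjusted p 0.219 in edgeR) and CXCL3 (0.102) did not pass, and by limma on mean CPM per cell IL6 (0.121) and CXCL3 (0.0807) did not. The lists that hold these 6 genes were drawn up with earlier results of these libraries known, so their p-values are not independent evidence.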

How the results depend on the processing

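Of the 10 genes' 50 log2 changes over 5 comparisons, 47 to 50 kept their sign with each library left out. All 50 kept it under every other planned setting that fitted all of them, 40 of 40 did with only the groups compared, where the difference was not run, and 30 of 30 did where genes needed a mean log2 CPM of 5, which removed 4 genes. The signs that turned in WT were BIRC3 (0.18 without irradiated WT replicate 1, 0.29 without untreated WT replicate 2), BIRC2 (0.00058 without untreated WT replicate 2), TNFAIP3 (0.19 and 1.52 without irradiated or untreated WT replicate 1) and NFKB2 (0.43 without untreated WT replicate 2), none of them called. With 1 library left out, the WT changes ran from -0.47 to 0.29 for BIRC3, -0.43 to 0.00058 for BIRC2, -0.87 to 1.52 for TNFAIP3 and -0.79 to 0.43 for NFKB2.

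Counts of calls moved more, and the cause was not tested beyond what each setting removes. For knockdown irradiation, 28 calls became 236 with no filter, 177 by DESeq2, 68 without cells above 2 times the median, 122 by limma on mean CPM per cell, 65 with only the groups compared, and 44 to 142 with 1 library left out. For WT irradiation, 205 became 534 with no filter, 322 with a log2 CPM of at least 5, 585 by DESeq2, 130 without large cells, 33 with only the groups compared, and 89 to 376 with 1 library left out. For the difference, 23 became 195 with no filter, 45 with the higher filter, 159 by DESeq2, and 31 to 128 with 1 library left out. Of the 10 genes, 1 was called in WT, and 2 with no filter or without large cells, 0 by DESeq2 or with only the groups compared, and 0 to 2 with 1 library left out. Of the pathway lists, 8 genes called in knockdown became 14 with no filter, and 7 to 10 with 1 library left out. The 3 called in WT became 10 with no filter, 5 with the higher filter, 7 by DESeq2, 0 without large cells, 1 by limma, 1 with only the groups compared, and 2 to 5 with 1 library left out.

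The number of genes with a lower share of positive cells in irradiated knockdown was 6 to 8 over thinning depths, and restricting the mean to genes lower in irradiated knockdown kept all 10, so the 5 most alike genes did not change. No paired analysis was possible because the labels give no replicate numbers; those used here follow accession order and only name libraries. Sparse genes, TNFAIP3 above all, are limited by counts in few cells.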
